A study of Mus musculus with 15 samples.

Results

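Mitochondrial proteases and chaperones were examined by the H3K4me3 peaks at the promoters of 10 genes: the matrix protease genes Clpp, Clpx and Lonp1, the inner membrane protease genes Afg3l2, Spg7, Yme1l1 and Oma1, and the chaperone genes Hspd1, Hspe1 and Hspa9. The genes were chosen by name, out of 21770 protein-coding genes and 78289 genes of all kinds in the mouse annotation used. A peak was assigned to a gene when it overlapped the sequence within 2000 bp of any of its annotated transcript starts on the GRCm39 build. Clpp itself is included because its loss defines one of the conditions.

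H3K4me3 ChIP–seq was performed in mouse mBA cells, brown adipocytes differentiated in culture, with 4 ChIP samples and 1 input in each of 3 conditions. The conditions were untreated wild-type cells (WT), wild-type cells given a cell-permeable 2-hydroxyglutarate in DMSO (WT + 2HG; 500 µM of the octyl ester of the d form for 72 h), and untreated cells lacking CLPP (CLPP-KO). Only CLPP-KO cells received uridine in the medium, so genotype and uridine cannot be told apart, and the labels name no vehicle for WT. Peaks were called on the 4 replicates of a condition together, which leaves 1 list per condition, and values "after 2HG" are those of the WT + 2HG list. There was therefore no spread between replicates, no test was possible, and each difference below is a difference between 2 lists.

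The labels call the cells primary, whereas the methods text describes preadipocytes from the brown fat of newborn animals, pooled over both sexes, immortalized with SV40 large T antigen and then differentiated. CLPP-KO cells came from animals in which Clpp fl/fl was recombined throughout the body by a β-actin-driven Cre. Of 7 brown adipocyte markers, 1 had a promoter peak in WT, 2 after 2HG and 3 in CLPP-KO, where 51.3%, 56.4% and 58.2% of coding genes had one. Prdm16 had a peak in every list, while the defining genes Ucp1, Ppargc1a, Dio2 and Elovl3 had none in any. A missing peak does not show the absence of the mark. The study reports that UCP1 rose strongly on differentiation in cells of both genotypes, and that Ppargc1a transcript was induced in CLPP-KO cells. Of 6 general adipocyte markers, 2 had a peak in WT, 4 after 2HG and 3 in CLPP-KO. Pparg and Cebpa had peaks in all 3 lists, Plin1 in the 2 lists other than WT, Lipe in WT + 2HG alone, and Adipoq and Fabp4 in none. None of the 3 immune markers had a peak. Of 4 skeletal muscle markers, Myod1 and Pax7 had one in CLPP-KO alone. Of 3 endothelial markers Kdr had a peak in every list, and of 3 epithelial markers Cdh1 had one in every list and Epcam in the 2 lists other than WT.

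Most mitochondrial proteins are made in the cytosol, imported unfolded and then folded, trimmed or removed by enzymes of the organelle. In the matrix, CLPP forms a barrel-shaped peptidase that degrades proteins handed to it by the unfoldase CLPX, and LONP1 is a separate ATP-dependent protease that removes damaged or surplus proteins. AFG3L2 and SPG7 build the m-AAA protease and YME1L1 the i-AAA protease, which face opposite sides of the inner membrane. OMA1 is an inner membrane metallopeptidase that becomes active under stress and cleaves the fusion protein OPA1. HSPD1 and HSPE1 are the chamber and lid of the matrix chaperonin, known as HSP60 and HSP10, and HSPA9, or mortalin, is the matrix HSP70. H3K4me3 marks the start regions of genes with active or poised promoters, typically over CpG islands.

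Hspd1 and Hspe1 are transcribed away from each other, their canonical starts are 108 bp apart, and a heat shock element, the binding motif of the heat shock factors, lies in between. It was searched on both strands as GAA, TTC and GAA, or TTC, GAA and TTC, with 2 free bases between neighbouring triplets. Among 21770 windows of coding genes, from 250 bases before to 50 after the canonical start, 0.478% held such a match, and of the 10 genes Hspd1 and Hspe1, whose windows share these bases, did. The stretch is chr1:55127212-55127241 on the plus strand of GRCm39, read from the reference genome, with the 18 bases of 2 overlapping matches in capitals. They begin 35 bp from the Hspd1 start and end 56 bp from the Hspe1 start.
Hspd1 and Hspe1: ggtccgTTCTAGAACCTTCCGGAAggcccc

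The sequences upstream of Clpp and Clpx, which encode the 2 parts of one protease, are shown because their CpG content and their peaks did not run in parallel. Each is the 200 bases before the gene's first annotated start, on the plus strand of GRCm39, chr17:57296771-57296970 for Clpp and chr9:65201340-65201539 for Clpx, with CpG dinucleotides in capitals. The Clpp stretch holds 6 CpGs and the Clpx stretch 22.
Clpp: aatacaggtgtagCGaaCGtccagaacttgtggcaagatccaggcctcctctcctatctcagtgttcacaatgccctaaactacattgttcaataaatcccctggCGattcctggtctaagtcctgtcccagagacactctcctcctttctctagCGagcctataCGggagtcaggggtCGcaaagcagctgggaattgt
Clpx: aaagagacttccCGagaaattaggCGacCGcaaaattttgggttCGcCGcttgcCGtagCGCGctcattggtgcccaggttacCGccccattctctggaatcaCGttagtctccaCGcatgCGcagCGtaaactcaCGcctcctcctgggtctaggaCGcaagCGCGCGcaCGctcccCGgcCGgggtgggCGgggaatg

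Matches to the motif of NRF1, a regulator of nuclear genes for mitochondrial proteins, depended on the annotated start used. Searched on both strands as GCGCA, a free base and GCGC, the motif was in none of the 10 windows at canonical starts, against 5.81% of coding windows. In RefSeq promoter windows of the same length, from a table built on GRCm38.p6, it was in 3 of the 8 genes with a window, Hspd1, Oma1 and Spg7, against 6.38% of 21262 coding windows. A gene was counted if any of its windows matched, whereas the share is of single windows. Hspd1 had windows for starts at 92 and -219 bp from its canonical start, and only the latter held the motif. The 4 matches, with the motif in capitals on the gene's strand, were placed on GRCm39 by an exact and single match of the RefSeq window to that genome. They begin at -59 for Hspd1, -23 for Oma1, and -66 and -4 for Spg7, counted in bases from the RefSeq start.
Hspd1, chr1:55127442-55127471, minus strand: gccgcgcagcGCGCAGGCGCactcagcccc
Oma1, chr4:103171010-103171039, plus strand: ggaaaggtgtGCGCCTGCGCggagccggct
Spg7, chr8:123792171-123792200, plus strand: cttcaaccccGCGCAAGCGCaaagggaggc
Spg7, chr8:123792233-123792262, plus strand: gagccgcactGCGCAGGCGCcgctttcggc

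A promoter peak was present in each of the 3 lists for 9 of the 10 genes, and for the tenth, Clpx, in none. Among all coding genes a promoter peak was listed for 51.3% in WT, 56.4% after 2HG and 58.2% in CLPP-KO. Hspd1 and Hspe1 share 1 peak, so the 9 genes rest on 8 distinct peaks in each list. Clpx was not among the coding genes whose promoter peak was listed in CLPP-KO and not in WT (7.25%), after 2HG and not in WT (5.64%), or in CLPP-KO and not in WT + 2HG (2.8%). The lists held 12342 peaks in WT, 14059 after 2HG and 15118 in CLPP-KO. Peak strength is given as the percentile of a peak's area within its own list, that is, the percentage of peaks in that list with an area no larger. The area is the peak caller's significance signal summed over the peak, and its median was 2970 in WT, 5027 after 2HG and 5744 in CLPP-KO. Areas are not scaled between lists, and the percentile of any one peak also depends on how many weak peaks its list holds. Read numbers per sample are not part of the lists. The study's reporting summary states a general sequencing depth but no value per sample, so the depth behind a single peak is unknown.

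**Figure D1:**
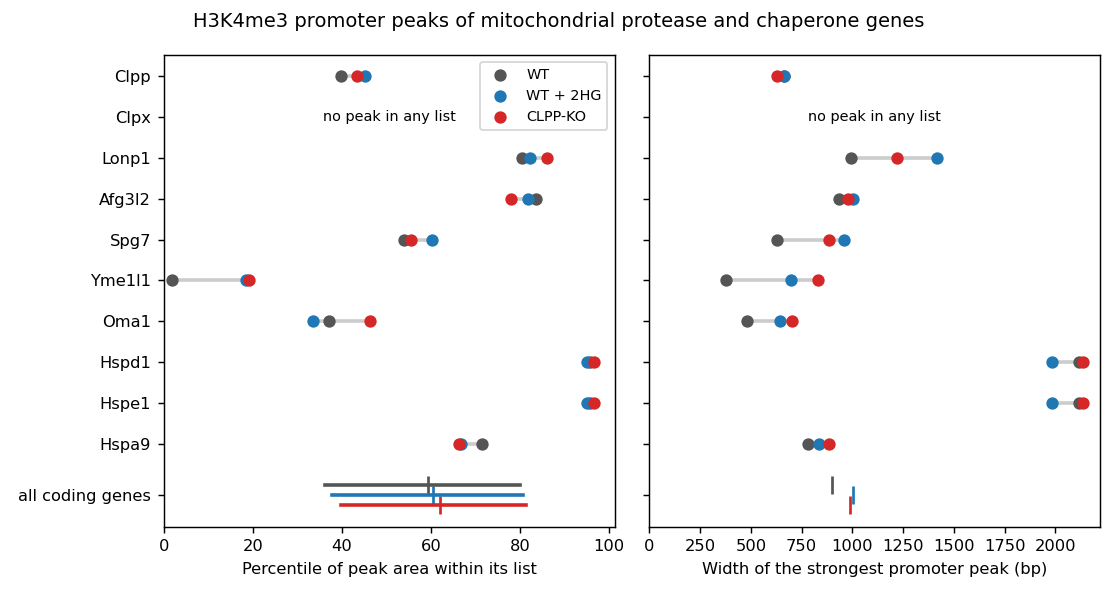
Percentile of peak area within its list (left) and peak width in bp (right) of the strongest promoter peak of each of the 10 genes in the WT, WT + 2HG and CLPP-KO lists, 1 point per list. The bottom row gives the medians over all coding genes with a promoter peak, with their quartiles as bars in the left panel. Hspd1 and Hspe1 lie highest and widest in every list, Yme1l1 lies lowest, and Clpx has no peak.

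Among the matrix proteases, Clpp carried a peak of middling rank in all 3 lists, including the one from cells without CLPP. Its percentile was 39.9 in WT, 45.2 after 2HG and 43.4 in CLPP-KO, below the coding-gene medians of 59.3, 60.6 and 62.0. Its width was 661, 664 and 629 bp in the same order, a span of 35 bp. The peak lay at chr17:57297232-57297892 in WT, chr17:57297250-57297913 in WT + 2HG and chr17:57297239-57297867 in CLPP-KO. A peak over the start of Clpp does not test the knockout, since the recombined allele may keep its promoter and a histone mark does not measure the transcript.

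The Clpp peak did not reach the canonical start. In WT it ran from 261 to 921 bp downstream of it, and the CpG-poor sequence printed for Clpp lay outside the peak in every list. The RefSeq start, 293 bp downstream of the canonical one, was under the peak in all 3 lists, and the peak began at -32, -14 and -25 bp from it in WT, WT + 2HG and CLPP-KO. Of 4 annotated starts of Clpp, 3 were under the peak. The start of the antisense non-coding gene Gm33509, 275 bp downstream of the canonical start, was under it in WT and CLPP-KO, and ChIP–seq has no strand by which to divide a peak between the genes.

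Clpx, the unfoldase partner of Clpp, had no peak in any list. The nearest one lay 51740 bp downstream of its canonical start in WT, 51762 bp after 2HG and 51760 bp in CLPP-KO. The CpG observed-over-expected ratio in the 1000 bases around that start was 0.936, higher than or equal to that of 94.9% of coding genes. Of the 1119 coding genes with a ratio at least as high, 32, or 2.86%, had no promoter peak in any list, against 40.6% of all coding genes. Thus Clpx stood in a small minority of CpG-rich promoters without a listed peak. Whether reads at this locus were few, or were removed by mapping or by the excluded regions used in peak calling, was not tested, and the absence of a listed peak does not show the absence of the mark.

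Lonp1 had the strongest peak of the matrix proteases. Its percentile was 80.4 in WT, 82.1 after 2HG and 86.0 in CLPP-KO, and its width 992, 1418 and 1218 bp. The peak covered all 27 annotated starts in each list. It lay at chr17:56933073-56934064 in WT, chr17:56933113-56934530 in WT + 2HG and chr17:56932941-56934158 in CLPP-KO. Most of the added width in WT + 2HG was on the upstream side, where the peak reached -599 bp from the canonical start, compared with -133 bp in WT and -227 bp in CLPP-KO.

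The inner membrane protease genes differed widely in peak strength, with Afg3l2 highest and Yme1l1 lowest of the 4 in every list. Afg3l2, on chromosome 18, had percentiles of 83.5 in WT, 81.7 after 2HG and 78.0 in CLPP-KO, the opposite order to that of Lonp1. By percentile of summit p both genes had the same order, 83.7, 84.1 and 88.5 for Afg3l2 and 87.9, 88.5 and 98.3 for Lonp1. The width of the Afg3l2 peak was 936, 1004 and 979 bp, and 21 of its 22 starts were under the peak in every list. Spg7, which encodes the other m-AAA subunit, ranked lower, at 53.9, 60.2 and 55.6, with widths of 629, 957 and 886 bp. The genes of the 2 m-AAA subunits thus ranked apart in every list.

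As listed, the Spg7 peak extended further upstream in both lists other than WT, and the part of read depth in this was not tested. In WT it lay at chr8:123792247-123792875 and began on the RefSeq start itself, 329 bp downstream of the canonical start. It began at 139 bp from the canonical start in WT + 2HG, at chr8:123792057-123793013, and at -7 bp in CLPP-KO, at chr8:123791911-123792796. The number of its 32 annotated starts under the peak was 7 in WT, 22 after 2HG and 23 in CLPP-KO. Both NRF1 matches printed for Spg7 were inside the WT + 2HG and CLPP-KO peaks, and in WT the second straddled the peak's edge.

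Oma1 had percentiles of 37.2 in WT, 33.5 after 2HG and 46.3 in CLPP-KO, and widths of 481, 642 and 702 bp. By percentile of area in the lists as deposited, CLPP-KO was highest for this stress-activated peptidase and WT + 2HG lowest. By percentile of summit p WT was highest (54.7, against 27.9 after 2HG and 52.7 in CLPP-KO). By percentile of width WT was lowest (14.7, against 26.7 and 34.4). In lists limited to the 12342 peaks of largest area, CLPP-KO minus WT was -2.94 points. The peak lay at chr4:103171017-103171497 in WT, chr4:103170908-103171549 in WT + 2HG and chr4:103170948-103171649 in CLPP-KO, downstream of the canonical start in each. Its RefSeq start, at 164 bp, and 9, 12 and 12 of its 17 annotated starts were under the peak. The start of the antisense gene Gm36523 was under it in WT + 2HG and CLPP-KO.

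By percentile of area, Yme1l1 had the weakest peak of the 9 genes in every list and the largest difference between any 2 of the lists as deposited. With equal-sized lists, by summit p or with the nearest peak, other genes differed more, for example Oma1 by -12.9 points (WT + 2HG minus WT) in equal-sized lists, where Yme1l1 differed by 5.18. Its percentile was 1.95 in WT, 18.5 after 2HG and 19.2 in CLPP-KO, and the width of its strongest peak 378, 700 and 831 bp. The area of the WT peak was 232, near the smallest area in that list, 200.02. The minimum area stated in the study's methods is lower than that smallest value, and what set it was not tested. The summit −log10 p was 3.29 in WT, 6.01 after 2HG and 4.71 in CLPP-KO.

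The position of these peaks also differed. Yme1l1 shares its upstream region with Mastl, a mitotic kinase gene transcribed in the opposite direction, whose start is 64 bp away. The WT peak, chr2:23045562-23045939, ended 161 bp upstream of the Yme1l1 canonical start, on the Mastl side, and covered none of the 9 Yme1l1 starts. The strongest peaks in WT + 2HG, chr2:23045534-23046233, and in CLPP-KO, chr2:23045502-23046332, covered the canonical starts of both genes, though their summits, at -221 and -265 bp, were also on the Mastl side. A second peak with no counterpart in WT lay at chr2:23046602-23047048 in WT + 2HG, percentile 10.2, and at chr2:23046660-23047065 in CLPP-KO, percentile 8.76. It began 85 and 143 bp downstream of the RefSeq start of Yme1l1 and covered 1 annotated start. Yme1l1 was the only one of the 7 genes with both a RefSeq window and a peak whose RefSeq start was not under the strongest peak.

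**Figure D2:**
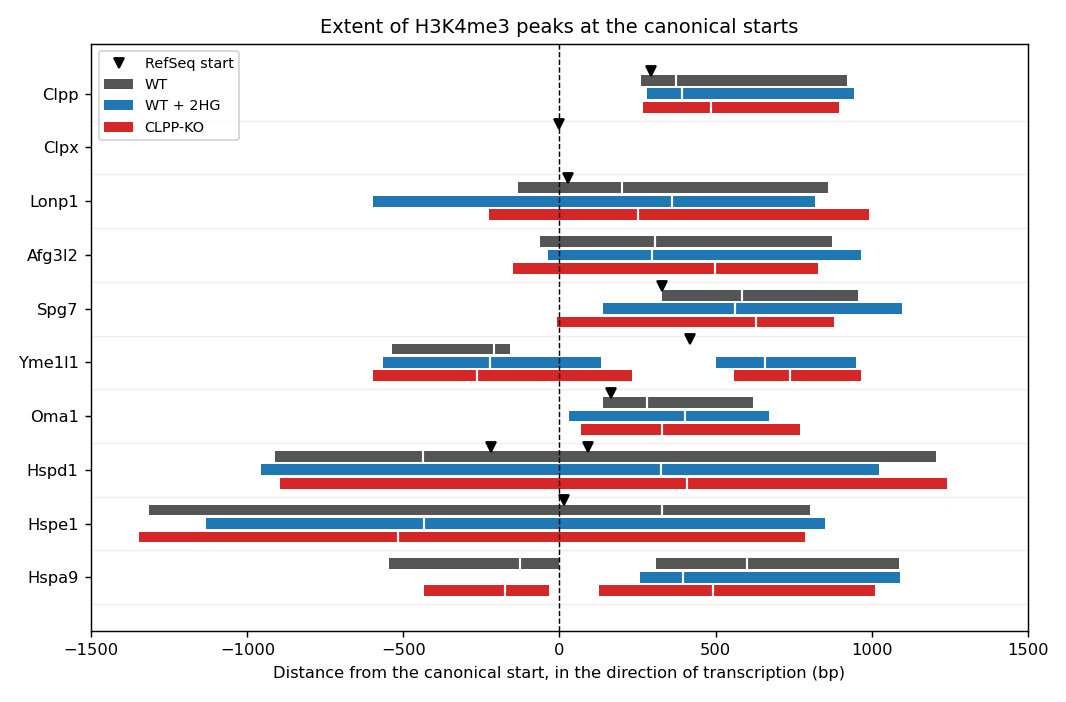
Extent of the listed peaks around the canonical start of each of the 10 genes, in bp along the direction of transcription (dashed line, the canonical start; white ticks, summits; triangles, RefSeq starts where a RefSeq window was at hand), with 1 bar per peak and list. The Clpp peak begins downstream of the canonical start in all 3 lists, Yme1l1 has a second peak in WT + 2HG and CLPP-KO but not in WT, and Hspa9 lacks its upstream peak in WT + 2HG. The distant peak at another Hspd1 start is left out.

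Of the chaperones, Hspd1 and Hspe1 had the strongest and widest peak of the group. Their shared peak had percentiles of 95.7 in WT, 94.99 after 2HG and 96.5 in CLPP-KO, a range of 1.49 points, and widths of 2118, 1982 and 2135 bp. The median width over coding genes was 901, 1002 and 990 bp. It lay at chr1:55125977-55128094 in WT, chr1:55126159-55128140 in WT + 2HG and chr1:55125943-55128077 in CLPP-KO, and covered both canonical starts and the heat shock element between them. The signal of the 2 genes cannot be separated. One further Hspd1 start lies far upstream, at the start of Mob4, and the peaks there, with percentiles of 75.5, 76.1 and 83.1, also met the rule but were weaker.

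Hspa9, on chromosome 18, had a main peak with percentiles of 71.4 in WT, 66.7 after 2HG and 66.2 in CLPP-KO and widths of 780, 834 and 884 bp. The main peak was wholly downstream of the canonical start, from 308 bp in WT, 257 bp after 2HG and 128 bp in CLPP-KO, and also held the start of the antisense gene Gm56488. A second, weaker peak upstream of the start was listed in WT, from -546 to -4 bp with percentile 20.8, and in CLPP-KO, from -433 to -36 bp with percentile 16.7. None was listed there in WT + 2HG.

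Across the 9 genes the summit was downstream of the canonical start for 7 in each list, or 77.8%, against 84.5%, 84.8% and 85.3% of coding genes in WT, WT + 2HG and CLPP-KO. The strongest peak spanned the canonical start for 4 of 9 genes in WT, 5 after 2HG and 6 in CLPP-KO, where the shares of coding genes were 52.6%, 68.2% and 67.3%. The genes that gained this overlap were Yme1l1, in both lists, and Spg7, in CLPP-KO.

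CLPP-KO was compared with WT to ask how peak strength at these genes ranked with and without CLPP. A difference of at least 5 percentile points was counted as called. Higher in CLPP-KO were Yme1l1 by 17.2 points, Oma1 by 9.14 and Lonp1 by 5.54, and lower were Afg3l2, by -5.50, and Hspa9, by -5.14. Thus 3 of 9 genes were called higher and 2 lower. Among 11084 coding genes with a promoter peak in both lists, 51% were called higher and 14.5% lower, 65.5% in all, and the median difference was 5.27 points. The median of the 9 genes was 1.68 points, with the shared peak of Hspd1 and Hspe1 counted for each gene, and 3 of the 9, Lonp1, Yme1l1 and Oma1, were above the coding-gene median. By percentile of width the order of the medians was the opposite, 6.51 points for the 9 genes and 1.90 for coding genes. The remaining 4 genes, Clpp (3.50 points), Spg7 (1.68), and Hspd1 and Hspe1 (0.785 each, from 1 peak), were within the threshold.

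The called differences of Lonp1, Afg3l2 and Hspa9 were within 1 point of the threshold. When the median difference of all coding genes was subtracted, an alternative chosen after seeing the data, only Yme1l1 was higher and Afg3l2 and Hspa9 were lower, where 35.5% of coding genes were higher and 31.6% lower. In lists limited to the 12342 peaks of largest area, no gene was called higher and 4 were called lower, where 30.1% of coding genes were higher and 34.01% lower. In those lists the difference of Yme1l1 was -0.980 and that of Oma1 -2.94. The genes called lower also changed sign, Afg3l2 to 4.85 by percentile of summit p and Hspa9 to 6.51 by percentile of width. Other rankings gave more higher calls: by percentile of width 5 genes were higher and 0 lower, where 40.5% of coding genes were higher and 21.7% lower, and by percentile of summit p 5 were higher and 1 lower, where 55.8% were higher and 22.4% lower.

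WT + 2HG was compared with WT to ask the same of cells exposed to 2HG. Yme1l1 was higher by 16.5 points, Spg7 by 6.36 and Clpp by 5.26, and no gene was called lower. Among 11057 coding genes 45.8% were called higher and 18.7% lower, 64.5% in all, with a median difference of 3.69 points. The median of the 9 genes was -0.704 points, the value of the peak shared by Hspd1 and Hspe1 and counted for each gene. With that peak counted once, the middle values were -0.704 and 1.70, the latter that of Lonp1. Clpp was just past the threshold and Hspa9 (-4.69 points) just short of it. Less the median of all coding genes, 1 gene was higher and 3 were lower, where 35.5% of coding genes were higher and 29.4% lower. In the equal-sized lists only Yme1l1 (5.18) was higher, Oma1 (-12.9) and Hspa9 (-9.33) were lower, where 32.1% of coding genes were higher and 31.9% lower, and the difference of Clpp was -2.37. By percentile of summit p 5 genes were higher and 2 lower, Oma1 (-26.9) and Hspa9 (-15.4), where 50.9% of coding genes were higher and 26.4% lower. By percentile of width 4 genes were higher and 0 lower, where 38.3% of coding genes were higher and 25.7% lower.

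The WT list served both comparisons, and a gene's values in the 2 are therefore not independent. Side by side, Yme1l1 differed from WT by 17.2 points in CLPP-KO and 16.5 in WT + 2HG, and the values came from the same very weak WT peak. For Oma1 the values were 9.14 and -3.62, and for Lonp1 5.54 and 1.70. For Hspa9 they were -5.14 and -4.69.

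The direct comparison of CLPP-KO with WT + 2HG, which leaves WT out, called 1 gene. Oma1 was 12.8 points higher in CLPP-KO, and no gene was called lower. The shares over 12054 coding genes were 34.7% higher and 19.2% lower, 53.9% in all. The next largest differences were those of Spg7 (-4.68), Lonp1 (3.84) and Afg3l2 (-3.69), and Yme1l1 differed by 0.684 points. The difference of Oma1 stayed past the threshold, in the same direction, in all 10 alternatives that gave it a value, from 7.64 to 24.9 points. Oma1 has a single promoter peak in each list. The alternatives that changed only the window, the starts, the summit rule or the choice of peak therefore used that same peak and left the value as reported. The absence of lower calls did not hold in 6 of the alternatives. In the equal-sized lists 4 genes were lower, Clpp (-6.86), Afg3l2 (-6.09), Spg7 (-9.14) and Yme1l1 (-6.16), where 26.8% of coding genes were higher and 30.4% lower. With a limit on the summit p, and after subtracting the median of all coding genes, Afg3l2 (-5.03 and -5.28) and Spg7 (-7.00 and -6.26) were lower, where 24.8% and 24.3% of coding genes were lower.

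**Figure D3:**
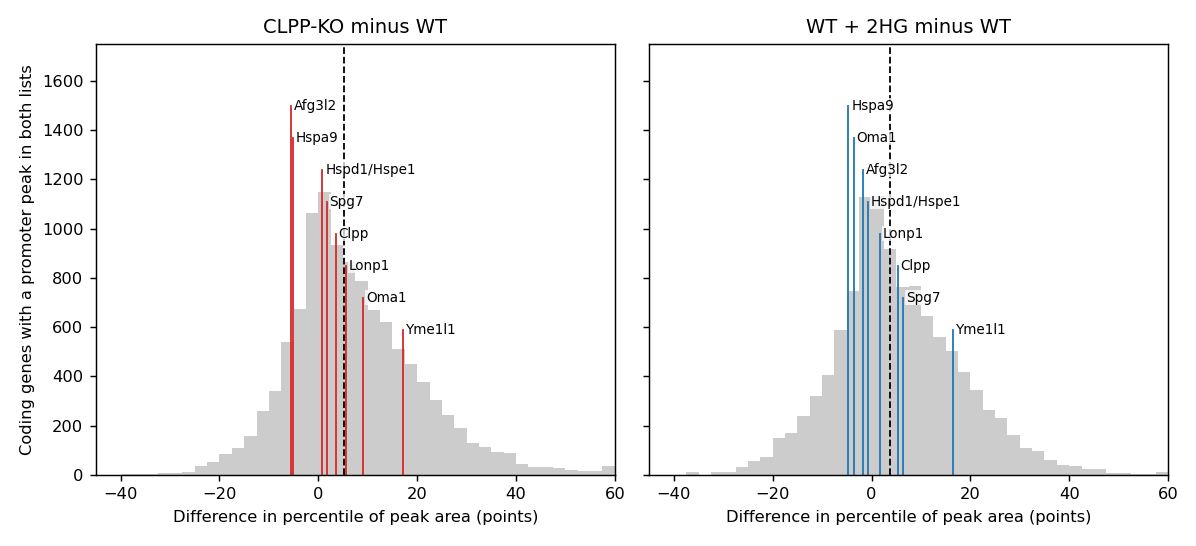
Histograms of the difference in percentile of peak area for coding genes with a promoter peak in both lists, CLPP-KO minus WT (left) and WT + 2HG minus WT (right), in percentile points, with values beyond the axis drawn in its end bins. Coloured lines mark the 9 genes at arbitrary heights and the dashed line the median of all coding genes (5.27 and 3.69). Yme1l1 lies furthest to the right of the 9 in both panels and most others lie near or left of the dashed line.

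Peak width was compared as a ratio between lists. Width also depends on read depth, which the lists do not give, and the part of depth in these ratios was not tested. A peak at least 25% wider was counted as wider and one at least 20% narrower as narrower. Against WT, Spg7 (1.41 times), Yme1l1 (2.20) and Oma1 (1.46) were wider in CLPP-KO, 3 of 9 genes where 30.7% of coding genes were wider and 4.55% narrower (35.2% past either threshold). Lonp1 (1.43), Spg7 (1.52), Yme1l1 (1.85) and Oma1 (1.33) were wider in WT + 2HG, 4 of 9 where 31.1% of coding genes were wider and 5.18% narrower (36.2% in all). By the strongest peak, none of the 9 genes was narrower in either comparison. By bases covered by all promoter peaks, Hspa9 was narrower in WT + 2HG (834 bp, against 1323 bp in WT). By the peak nearest to the canonical start, Hspa9 was narrower in CLPP-KO (398 bp, against 543 bp in WT) and wider in WT + 2HG (834 bp). Between CLPP-KO and WT + 2HG none passed a width threshold, against 13.6% wider and 11.6% narrower among coding genes, 25.2% in all. Spg7, Yme1l1 and Oma1 were wider in both lists against their common WT list, as were 20.9% of the 11021 coding genes with a promoter peak in all lists. The ratios to WT in CLPP-KO and WT + 2HG were within the thresholds for Clpp (0.952 and 1.00 times), Hspd1 and Hspe1 (1.01 and 0.936), Afg3l2 (1.05 and 1.07) and Hspa9 (1.13 and 1.07).

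The wider protease and chaperone system was described by 36 further genes, of which 35 had a promoter peak in all 3 lists. The exception was Atf4, the transcription factor of the integrated stress response, which had no peak in any list. Its nearest peaks were 80684 bp upstream of the canonical start in WT, 80362 bp upstream in WT + 2HG and 32391 bp downstream in CLPP-KO. The median percentile of the 35 genes was 54.4 in WT, 58.0 after 2HG and 57.3 in CLPP-KO, compared with 71.4, 66.7 and 66.2 for the 9 genes with peaks. The latter medians count the shared peak of Hspd1 and Hspe1 for each gene. With that peak counted once, the middle values were those of Spg7 and Hspa9, 53.9 and 71.4 in WT, 60.2 and 66.7 after 2HG and 55.6 and 66.2 in CLPP-KO. In CLPP-KO against WT 15 of the 35 were higher, 10 lower and 10 within the threshold, where 51% of coding genes were higher and 14.5% lower. In WT + 2HG against WT 17 were higher, 7 lower and 11 within it, where 45.8% of coding genes were higher and 18.7% lower. Their median differences were 1.56 and 3.91 points.

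At the top of this list in WT were Pmpca, the α subunit of the presequence-processing peptidase, Htra2, a protease of the intermembrane space, and Hsf1, a heat shock factor. Pmpca had percentiles of 96.4 in WT, 91.1 after 2HG and 91.4 in CLPP-KO. Htra2 had 95.4, 95.8 and 97.4, and Hsf1 87.0, 83.6 and 88.6. At the bottom were Phb1, a subunit of the prohibitin scaffold around the m-AAA protease, Clpb, a disaggregase, and Pitrm1, which degrades presequence peptides. Phb1 had percentiles of 3.81, 11.5 and 11.7. Clpb had 17.5, 30.1 and 33.6, and Pitrm1 29.6, 26.4 and 25.4.

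Higher than WT by at least 5 points in both other lists were 13 of the 35 genes, or 37.1%, against 37.7% of the 11021 coding genes with a promoter peak in all lists. Among the proteases and peptidases these were Afg3l1, Xpnpep3, Immp1l, Immp2l and Nln. The largest difference was that of Nln, a metallopeptidase of short peptides, at 56.2 in WT, 85.6 after 2HG and 84.0 in CLPP-KO. Afg3l1, a paralogue of Afg3l2 in the m-AAA family, had 33.6, 49.6 and 53.2, whereas Afg3l2 itself ranked lower by area in both lists than in WT. By percentile of summit p, Afg3l2 differed from WT by 4.85 points in CLPP-KO and 0.445 in WT + 2HG. Among chaperones and import motor components the genes higher in both lists were Clpb, Dnlz, Dnajc15, Dnajc19 and Pam16. The others were Phb1, Maip1, which assists m-AAA protease assembly, and Dele1, which relays mitochondrial stress to the cytosol after OMA1 cleaves it. Dele1 had 33.0, 42.6 and 40.3.

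Lower than WT by at least 5 points in both other lists were 4 of the 35 genes, or 11.4%, against 8.76% of those coding genes. Trap1, the mitochondrial HSP90, had percentiles of 78.1 in WT, 52.5 after 2HG and 57.5 in CLPP-KO. Dnaja3, a J-domain partner of HSPA9, had 80.5, 67.2 and 65.9. Hscb, a J-domain protein of iron–sulfur cluster assembly, had 45.6, 34.9 and 40.4, and Pink1, the kinase that marks damaged mitochondria, had 78.9, 69.4 and 69.6.

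Other gene families placed these values in context. The 78 mitochondrial ribosomal protein genes, of which 70 had a peak in WT, 71 after 2HG and 72 in CLPP-KO, had median percentiles of 47.8, 50.4 and 48.9. The 39 proteasome subunit genes, with 34, 33 and 34 peaks, had 62.0, 59.2 and 59.0. All 16 cytosolic and endoplasmic reticulum chaperone genes had a peak in every list, with medians of 71.97, 73.2 and 75.8. In WT theirs was the nearest to the 71.4 of the 9 genes, which counts the shared peak of Hspd1 and Hspe1 for each gene. With that peak counted once, the middle values in WT were 53.9 and 71.4, and the proteasome median of 62.0 lay between them. In CLPP-KO against WT, 6 of these 16 were higher and 1 lower, as were 31 and 12 of 68 mitochondrial ribosomal protein genes and 15 and 5 of 34 proteasome genes, beside the same 51% and 14.5% of coding genes. In WT + 2HG against WT, 6 of the 16 were higher and 2 lower, 24 and 18 of 69 mitochondrial ribosomal protein genes and 7 and 8 of 33 proteasome genes, beside 45.8% and 18.7% of coding genes. Lonp2, the peroxisomal relative of Lonp1, had percentiles of 71.3, 71.8 and 74.0.

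**Figure D4:**
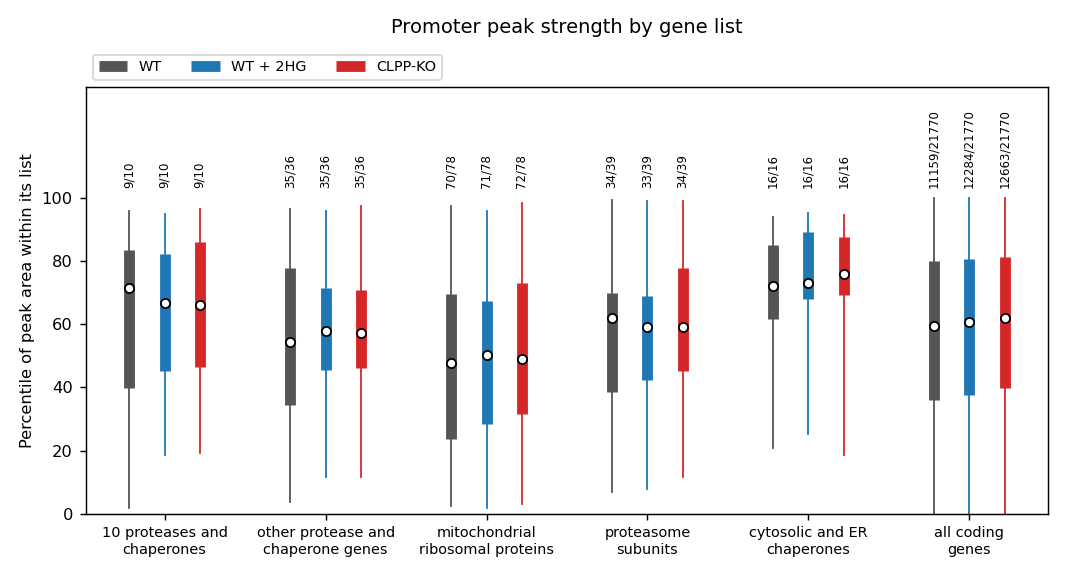
Percentile of peak area of the strongest promoter peak by gene list and by condition (circle, median; thick bar, quartiles; thin line, lowest to highest), with the number of genes with a peak over the number in the list above each. The protease and chaperone genes have medians of 71.4, 66.7 and 66.2, with the shared peak of Hspd1 and Hspe1 counted for each gene. All coding genes have 59.3, 60.6 and 62.0, and the ranges overlap widely. With that peak counted once, the middle values of the 8 peaks are those of Spg7 and Hspa9. They are 53.9 and 71.4 in WT, 60.2 and 66.7 in WT + 2HG, and 55.6 and 66.2 in CLPP-KO. Each coding-gene median lies between them.

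The coding genes whose 3 percentiles were nearest to those of Clpp, by Euclidean distance over the 3 lists among 11020 genes, were Mad2l1 (distance 0.749 points), Chfr (1.21) and Gpx1 (1.27). Mad2l1 had percentiles of 40.2, 45.9 and 43.6.

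The 10 genes had CpG-rich promoters. Their median CpG ratio was 0.873, compared with 0.575 over all coding genes. All 10 were above 0.6, from 0.673 for Clpp, 0.6997 for Oma1 and 0.779 for Spg7 to 0.936 for Clpx and 1.00 for Hspa9. Of the 10384 coding genes with a ratio of at least 0.6, 5.27% had no promoter peak in any list, and of the 11386 below it 72.8%. Among the other motifs, the CCAAT box (CCAAT) was in 6 of the 10 windows at canonical starts, including those of Clpp and Clpx, and in 39.9% of coding windows. The SP-type GC box (GGGCGG) was in 6 and in 42.5%. These counts also depended on the start: in the RefSeq windows CCAAT was in 3 of 8 genes, Clpx but not Clpp among them, and in 38.2% of coding windows, and GGGCGG in 7 of 8 and in 46.2%. Genes were again counted by any of their windows and the shares by single windows. None of the 10 windows at canonical starts, nor of the RefSeq windows of the 8 genes, held the CARE motif of ATF4 and its partners (TGATGNAA, 3.84% of coding windows), the ETS motif CCGGAAGT (4.35%) or a TATAAA box (13.2%). A match is a run of letters in a window and was not measured as binding.

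**Figure D5:**
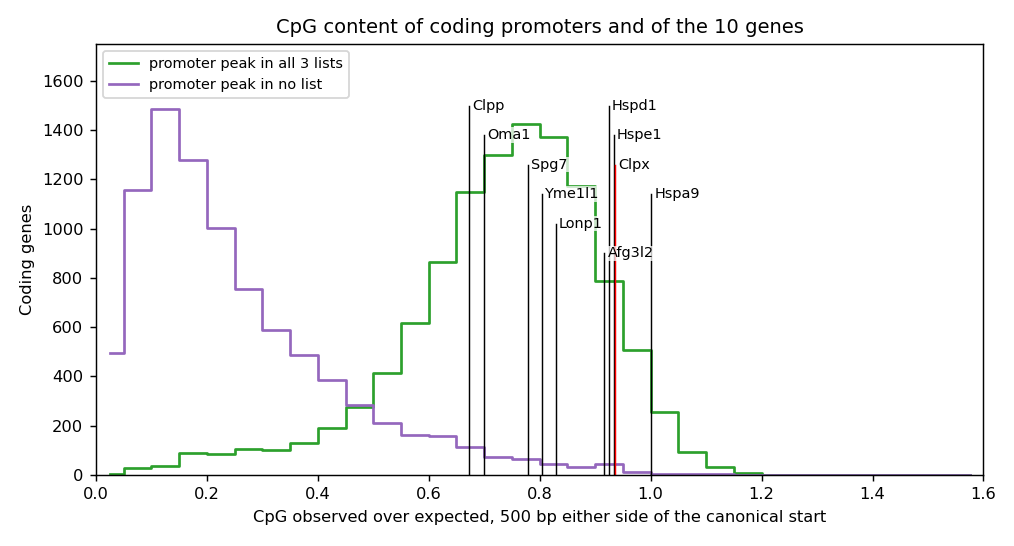
Number of coding genes by CpG observed-over-expected ratio in the 1000 bases around the canonical start, in bins of 0.05, for genes with a promoter peak in all 3 lists (green) and in none (purple), with lines at arbitrary heights for the 10 genes (Clpx in red). All 10 lie in the range where most genes have a peak in all lists, and Clpx, at 0.936, is the one without.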

How the data were processed

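H3K4me3 ChIP–seq was available for 12 samples (4 per condition) and 3 inputs. The authors trimmed reads with fastp 0.23.4, mapped them to GRCm39 with BWA 0.7.17 and called peaks with Genrich 0.6.1 on the 4 replicates of a condition together; deepTools 3.5.4 is also named in the submitters' processing notes. Each deposited list gives a peak's score (limited to 1000), its signal (area under the curve) and its summit −log10 p; the q-value field is empty. The values are the authors' own and were not rescaled.

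Genes and starts came from GENCODE M39. Of several promoter peaks, the one with the largest area was used. Percentiles of area were computed within a list, and differences of 5 points and peaks at least 25% wider or 20% narrower were counted. Motifs were searched in GRCm39 windows at canonical starts and, as planned, in RefSeq windows (GRCm38.p6), for which no RefSeq coordinates are printed. Assignment was tested on simulated data (200 of 200 planted pairs recovered) and against bedtools 2.31.1. Python 3.11.15 and pandas 2.3.3 were used. Alternatives covered the window, start, peak threshold, list size and ranking measure.

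Members, gene lists and tests were chosen with earlier results of these data known. In the wider list all genes without a peak, the 3 highest and 3 lowest in WT, and those called the same way in both comparisons were named. For Ddit3, a symbol with 2 gene IDs, the ID with most transcripts was used.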

Additional observations from a re-analysis of the deposited data

How the results depend on the processing

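No paired analysis was possible because each deposited list merges the 4 replicates of its condition, and for the same reason no test was made and no replicate could be left out. There were 11 alternatives, and not every one applied to every summary count. For single genes, the other windows, the canonical start alone and the summit rule picked the same peaks and left every difference as reported. Of the recomputed counts, 62 stayed within 1.5 times the reported count and 10 did not. The number of genes called, with the share of coding genes called at the same setting, was 3 (67.1%) instead of 5 (65.5%) in CLPP-KO against WT after subtracting the median of all coding genes, and 7 (77.3%) instead of 3 (64.5%) in WT + 2HG against WT by the percentile of summit p. In CLPP-KO against WT + 2HG, instead of 1 higher and 0 lower (53.9%), it was 3 with peaks of summit p of at most 1e-05 (2 lower, 56.8%), 5 in equal-sized lists (4 lower, 57.2%), 5 by the percentile of summit p (2 lower, 66.7%), 4 by the percentile of width (1 lower, 56.4%), 2 with the peak nearest to the canonical start (1 lower, 55.0%) and 3 less the median (2 lower, 53.6%). In that comparison 1 gene instead of 0 differed in width with the nearest peak (26.1% of coding genes) and 1 in covered bases (24.3%). In WT + 2HG against WT the total stayed at 3 in equal-sized lists, but as 1 higher and 2 lower. Of 267 alternative values for single genes 38 had the other sign than reported, 31 of them for differences within the 5-point threshold, of which 10 were then past it (for example Clpp -9.23 and Spg7 -8.31 for CLPP-KO minus WT in equal-sized lists, and Hspa9 45.9 for WT + 2HG minus WT with the nearest peak). The other 7 were for called differences: for CLPP-KO minus WT, Afg3l2 4.85 and Oma1 -1.99 by summit p, Yme1l1 -0.980 and Oma1 -2.94 in equal-sized lists, and Hspa9 6.51 by width; for WT + 2HG minus WT, Clpp -2.37 in equal-sized lists and -3.60 by width. The cause was not tested. In equal-sized lists the median difference of coding genes was -0.535 for CLPP-KO and -0.0446 for WT + 2HG, instead of 5.27 and 3.69. With the summit p limit Yme1l1 kept a peak in WT + 2HG alone.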
